A study of Mus musculus with 24 samples.

Results

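The imprinted genes H19, Igf2, Igf2r, Airn and Cdkn1c were followed in wild-type (WT) and AGO2 knockout (KO) mouse embryonic stem cells that were driven towards extraembryonic endoderm (XEN). The genes were selected on their levels and fold changes in these same libraries, day by day and at the endpoint, so their levels and fold changes are given as descriptions and carry no test. Each of the 5 genes had 1 row among the 30590 gene rows of the day 1 to 4 count files and 1 row among the 43629 of the endpoint files.

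The cells were E14 mouse embryonic stem cells (mESCs) on a 129/Ola background, and AGO2 is an Argonaute protein that holds microRNAs and binds their target RNAs. The compared groups were AGO2 KO and WT cells on days 1, 2, 3 and 4 of a 5-day protocol, AGO2 KO and WT cells labelled diff_XEN, and undifferentiated WT mESCs at passages 33 and 42, with 2 libraries in each group. The protocol used RPMI medium with 15% serum, 0.1 µM all-trans retinoic acid and 10 ng/mL activin A, and mESCs were kept in 15% serum with LIF. Polyadenylated RNA was sequenced as TruSeq libraries. The AGO2 KO diff_XEN group was made of the clones C4 and 5-3 with 1 library each, as the column names show. The clone behind the KO libraries of days 1 to 4 was not given in the sources used here. An effect of the genotype and a trait of a clone therefore cannot be told apart in the course. The day 1 to 4 libraries form one course and the diff_XEN and mESC libraries were re-used from earlier studies, so levels of the course and of the endpoint were scaled apart and were not compared.

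Imprinted genes are expressed mainly from the copy inherited from 1 parent. H19, a noncoding RNA of the maternal copy, and Igf2, a fetal growth factor of the paternal copy, share enhancers, and a methylated control region between them sets which gene each chromosome expresses. The receptor gene Igf2r, which takes up and clears the Igf2 protein, is expressed from the maternal copy in mouse, and the noncoding RNA Airn, made from the paternal copy, silences Igf2r on that chromosome. Cdkn1c encodes p57, a cyclin-dependent kinase inhibitor that restrains growth and is expressed from the maternal copy. Counts per gene do not separate the parental copies, so no allele was measured here.

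H19, Igf2 and Cdkn1c lie in this order on chromosome 7 (GRCm38), at chr7:142575529-142578143, chr7:142650766-142666816 and chr7:143458339-143461050, all on the minus strand. The gap was 72.6 kb between H19 and Igf2 and 791.5 kb between Igf2 and Cdkn1c. On chromosome 17, Igf2r lies at chr17:12682406-12769664 on the minus strand and Airn at chr17:12741311-12860136 on the plus strand. The spans of Igf2r and Airn overlap by 28354 bases, while their annotated exons share 0 bases. The libraries were made with a strand-specific protocol per the labels, but the strand setting of the counting was not given in the sources used here, so reads of unspliced transcripts of this pair could not be assigned with certainty.

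The sequences that mark these loci are shown first. H19 carries the hairpin of miR-675, which lies whole within an H19 exon (84 of 84 bases). The mature arms are given as RefSeq lists them (GRCm38.p6, chr7:142577112-142577133 and chr7:142577078-142577099, minus strand), with the seed, bases 2 to 8, in capitals. The 2 arms have different seeds.
miR-675-5p: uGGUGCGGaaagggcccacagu
miR-675-3p: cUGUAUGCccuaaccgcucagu
The libraries were of polyadenylated RNA, so levels of the mature arms were not measured. The Mir675 row of the endpoint files was at 0 in all 6 libraries, but all its bases also belong to H19. How reads shared by 2 genes were counted is not given in the sources used here, so the 0 is not read as absence. The RefSeq windows around the starts of Igf2r and Airn, from 250 bases before to 50 after (GRCm38.p6), are shown because they face each other within the overlapping locus. Every CpG, a C followed by a G, is in capitals, and its C can carry DNA methylation. The Igf2r window is chr17:12769657-12769956 on the minus strand and the Airn window chr17:12741061-12741360 on the plus strand.
Igf2r: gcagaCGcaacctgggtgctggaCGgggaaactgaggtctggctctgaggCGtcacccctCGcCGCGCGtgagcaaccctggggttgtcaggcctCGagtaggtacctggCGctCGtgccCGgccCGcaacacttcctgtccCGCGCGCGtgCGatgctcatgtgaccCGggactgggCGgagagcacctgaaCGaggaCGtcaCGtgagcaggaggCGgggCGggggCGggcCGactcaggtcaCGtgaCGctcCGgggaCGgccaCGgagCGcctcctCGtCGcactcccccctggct
Airn: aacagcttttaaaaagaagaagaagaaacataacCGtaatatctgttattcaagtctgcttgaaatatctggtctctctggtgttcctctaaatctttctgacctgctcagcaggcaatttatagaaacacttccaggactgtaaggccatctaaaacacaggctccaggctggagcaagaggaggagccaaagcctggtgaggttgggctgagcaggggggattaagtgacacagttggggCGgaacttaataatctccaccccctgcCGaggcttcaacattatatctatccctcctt
The Igf2r window held 34 CpG and the Airn window held 3, against a median of 7 over 32851 windows of the same length. As many CpG or more were held by 7.7% of all windows for Igf2r and by 76.7% for Airn. CpG outside these windows were not counted, so the numbers do not describe the wider locus or its control regions. Igf2 had 4 windows with 2, 14, 24 and 7 CpG, and counts per gene do not tell which of its starts was used. The motif AGGTCA, the core bound by retinoic acid receptors, searched on both strands, was found in the Igf2r window, the Airn window and 1 of the 4 Igf2 windows, and 16.3% of all windows held it. The GATA motif TGATAA was in none of these 6 windows, and 9.1% of all windows held it. Methylation and binding were not measured.

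Total counts per library were 10601574 to 27147835 in the course and 13941826 to 40139219 at the endpoint. Levels are CPM, counts scaled to the TMM-adjusted library size, and log2 fold changes come with a standard error (SE) from the model fitted across all genes. Ago2 had 33.8 to 148 CPM in the 8 KO course libraries, against 186 to 581 CPM in the 8 WT libraries, and was lower in both KO libraries on every day. It had 115 CPM in clone C4 and 9.35 CPM in clone 5-3, against 389 and 427 CPM in WT diff_XEN. The label was checked with 15 endoderm markers, none of them at 0 in any group, whose summed level on day 4 was 3945 to 5172 CPM in KO and 14253 to 15492 CPM in WT libraries, against 564 to 656 CPM in KO and 912 to 1043 CPM in WT libraries on day 1. The summed level of 11 mesenchyme and mesoderm markers on day 4 was 2750 to 5399 CPM in KO and 1489 to 4012 CPM in WT libraries. In bulk RNA, a change in the number of cells of a type and a change in RNA per cell cannot be told apart. Groups of 2 libraries can also lie apart by chance, and the share of all genes that did so was not determined. Days on which groups did not overlap are therefore given as a description only. Separate cultures were not stated for the replicates of the course and of WT diff_XEN, whose spread may therefore be technical. The KO diff_XEN libraries came from different clones and the mESC libraries from different passages.

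H19 was higher in AGO2 KO than in WT cells on every day, in both libraries, while its neighbour Igf2 was lower in KO on 3 of the days and overlapped with WT on day 4. On day 1, H19 had 26.1 and 38.3 CPM in KO libraries, against 4.17 and 3.58 CPM in WT libraries. On day 2, it had 238 and 351 CPM in KO libraries, against 24.7 and 13.9 CPM in WT libraries. The groups were apart on both days, and each KO library held several times the level of either WT library. On day 3, H19 had 1447 and 2835 CPM in KO libraries, against 233 and 41.9 CPM in WT libraries. On day 4, it had 5112 and 3259 CPM in KO libraries, against 328 and 167 CPM in WT libraries. The groups again did not overlap, so the KO libraries stood above the WT libraries on 4 of 4 days, and as a ratio, the widest spread between 2 replicates was that of WT on day 3. The log2 fold change, KO over WT, was 3.05 ± 0.73 on day 1, 3.93 ± 0.72 on day 2, 3.97 ± 0.71 on day 3 and 4.08 ± 0.72 on day 4 (SE, n = 2 each). Without WT replicate 1, the day 3 value was 5.68, and without WT replicate 2 it was 3.23.

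The order of the H19 levels followed genotype as well as day. KO day 4 stood first, followed by KO day 3 and then KO day 2 with 294 ± 79.8 CPM (SD, n = 2), which overlapped with WT day 4 at 247 ± 114 CPM (SD, n = 2). WT day 4 and WT day 3 overlapped as well, and below them KO day 1, WT day 2 and WT day 1 were each apart from the next. H19 in KO was thus on day 2 in the range that WT reached on day 4. Between days 1 and 4, H19 rose in both genotypes by 7.02 ± 0.82 in KO and by 5.99 ± 0.81 in WT on the log2 scale, and the difference of these changes, KO minus WT, was 1.03 ± 0.95 (SE).

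On days 3 and 4, mesenchyme and other marker sums differed between the replicates in which H19 differed. On day 3, replicates 1 and 2 had 1256 and 2242 CPM of the 11 mesenchyme and mesoderm markers in KO, against 1423 and 623 CPM in WT. The replicate with more of them also had more H19 in each genotype. On day 4, replicates 1 and 2 had 5399 and 2750 CPM of them in KO, against 4012 and 1489 CPM in WT, again with more H19 in the replicate that had more. On day 1, when H19 was already higher in KO, their sum was 30.7 to 31.6 CPM in KO, with 1 marker at 0, and 47.5 to 48.4 CPM in WT. The sum of 7 neural markers was also higher in the replicate with more H19. In replicates 1 and 2 it was 269 and 406 CPM in KO and 322 and 258 CPM in WT on day 3. On day 4 it was 621 and 401 CPM in KO and 434 and 256 CPM in WT. On day 1 it was 111 to 127 CPM in KO and 66.3 to 72.1 CPM in WT. The sum of 10 pluripotency markers was lower in the replicate with more H19 in each genotype on days 3 and 4. The sums of the endoderm markers and of trophoblast markers were mostly higher in the replicate with more H19 on these days. The exceptions were endoderm in WT on day 3, at 6607 and 6775 CPM in replicates 1 and 2, and trophoblast in KO on day 3, at 169 and 142 CPM. The part of these cell types in the H19 difference was not tested.

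**Figure D1:**
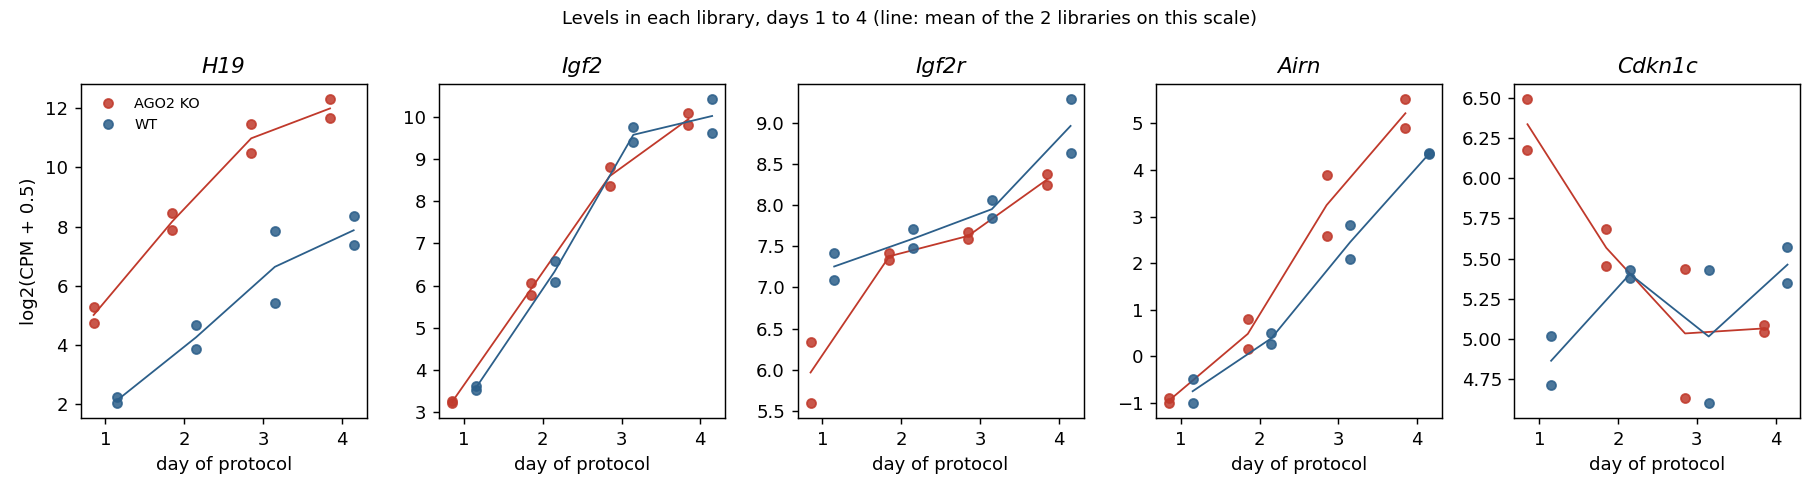
Levels of the 5 genes as log2(CPM + 0.5) in each library by day of the protocol, with AGO2 KO in red left of WT in blue. Points are libraries and lines join the means of 2 libraries. H19 is higher in both KO libraries on all 4 days, and Cdkn1c of KO starts above WT on day 1 and is below it on day 4.

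Igf2 rose steeply in both genotypes over the course. On days 1 and 2, it had 8.78 and 9.12 and then 54.2 and 66.0 CPM in KO libraries, against 11.0 and 11.7 and then 95.1 and 67.2 CPM in WT libraries. On day 3, it had 330.2 and 452 CPM in KO libraries, against 675 and 862 CPM in WT libraries. The KO libraries were below the WT libraries on these 3 of 4 days, with the widest gap on day 3. On day 4, the KO libraries had 1095 and 892 CPM, against 1378 and 784 CPM in WT libraries, and the groups overlapped. The log2 fold change, KO over WT, was -0.34 ± 0.27, -0.43 ± 0.25, -0.97 ± 0.25 and -0.12 ± 0.25 on days 1, 2, 3 and 4 (SE, n = 2 each). Day 4 was above day 1 by 6.79 ± 0.32 in KO and 6.57 ± 0.32 in WT on the log2 scale, and the difference of these changes was 0.22 ± 0.37 (SE). In the order of mean Igf2 levels, every group of a later day was above every group of an earlier day, although WT replicate 2 of day 4 was below WT replicate 2 of day 3. On each of days 1 to 3 WT was apart from and above KO. The day 4 fold change was 0.35 without WT replicate 1 and -0.44 without WT replicate 2.

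The count of H19 divided by that of Igf2 in the same library, which needs no scaling between libraries, separated the genotypes in the whole course. It was 2.98 and 4.20 on day 1, 4.39 and 5.32 on day 2, 4.38 and 6.27 on day 3 and 4.67 and 3.65 on day 4 in KO libraries. In WT libraries it was 0.378 and 0.306 on day 1, 0.259 and 0.207 on day 2, 0.344 and 0.0486 on day 3 and 0.238 and 0.212 on day 4. The ratio was thus above 1 in all 8 KO libraries, with a median of 4.39, and below 1 in all 8 WT libraries, with a median of 0.249. Both genes rose over the same days in both genotypes, and apart from WT replicate 2 of day 3, the ratio of a genotype stayed within 2.98 to 6.27 in KO and 0.207 to 0.378 in WT. The ratio compares counts of genes of different length, with 2.46 kb of exons in H19 and 5.72 kb in Igf2.

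**Figure D2:**
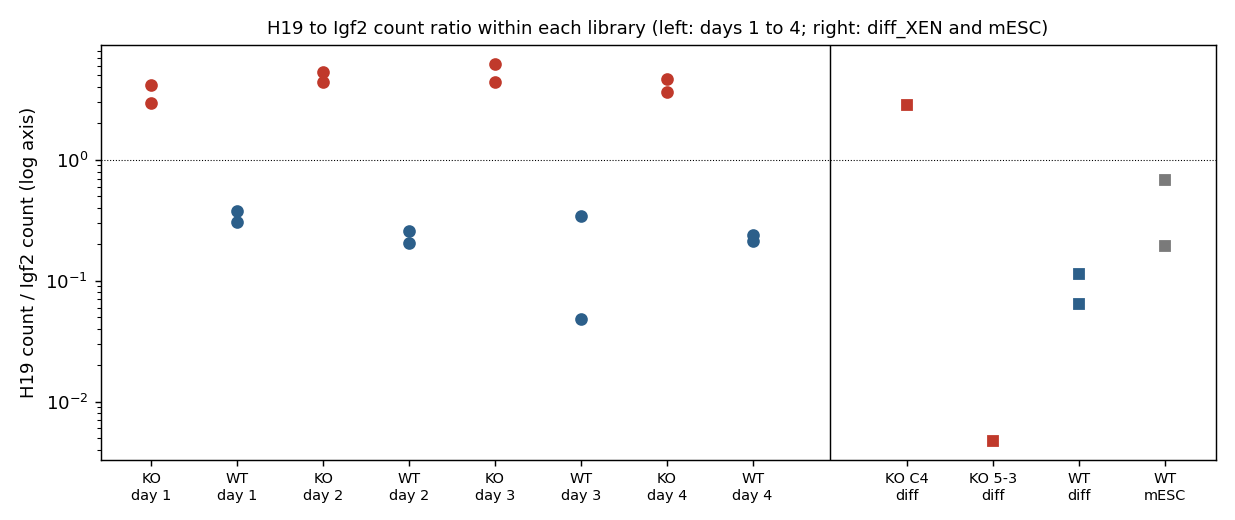
H19 count over Igf2 count within each library, on a log axis, for days 1 to 4 on the left and for diff_XEN and mESC on the right. AGO2 KO is red, WT blue and WT mESC grey, and the dotted line marks 1. All 8 KO course libraries are at or above 2.98 and all 8 WT course libraries at or below 0.378, while clones C4 and 5-3 lie on opposite sides of WT diff_XEN.

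Igf2r was lower in KO than in WT cells on every day, by the largest ratio on day 1. It had 80.3 and 47.8 CPM in KO libraries on day 1, against 136 and 171 CPM in WT libraries. On day 2, it had 161 and 171 CPM in KO libraries, against 208 and 178 CPM in WT libraries, and on day 3, 192 and 203 CPM in KO libraries, against 267 and 229 CPM in WT libraries. On day 4, it had 333 and 303 CPM in KO libraries, against 629 and 398 CPM in WT libraries. The groups did not overlap on 4 of 4 days, but on day 2 the nearest libraries were close. The share of all genes without overlap was not determined, so nothing is read from this count. The log2 fold change, KO over WT, was -1.26 ± 0.24, -0.22 ± 0.23, -0.33 ± 0.23 and -0.69 ± 0.23 on days 1, 2, 3 and 4 (SE, n = 2 each), so that of days 2 and 3 was within 2 SE of 0. Leaving out 1 library moved the day 1 value to between -1.62, without KO replicate 1, and -0.92, without KO replicate 2. The day 4 value was -0.31 without WT replicate 1 and -0.95 without WT replicate 2. Day 4 was above day 1 by 2.31 ± 0.25 in KO and 1.74 ± 0.24 in WT, with a difference of the changes of 0.57 ± 0.33 (SE). In the order of levels, WT day 4 stood first at 513 ± 163 CPM and KO day 1 last at 64.0 ± 23.0 CPM (SD, n = 2 each), and KO day 3 overlapped with WT day 2, as KO day 2 did with WT day 1. The summed endoderm markers were also lower in KO on every day, and their part in the Igf2r difference was not tested.

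Airn had 0 to 5 counts a library on day 1 and was higher on each later day in both genotypes. On day 1, the KO libraries held 1 and 0 Airn counts, and the WT libraries held 0 and 5, so the ratio of the summed counts per depth was 0.205 with an exact counting interval of 0.00433 to 1.83 (95%), which covers counting error only. On day 2, it had 0.623 and 1.24 CPM in KO libraries, against 0.706 and 0.925 CPM in WT libraries, and on day 3, 5.52 and 14.4 CPM in KO libraries, against 6.56 and 3.76 CPM in WT libraries. Up to day 3 the groups overlapped. On day 4, Airn had 29.5 and 45.6 CPM in KO libraries, against 19.7 and 20.04 CPM in WT libraries, and the groups were apart. As a log2 fold change, KO over WT, this came to 0.19 ± 0.64 on day 2, 0.93 ± 0.49 on day 3 and 0.92 ± 0.45 on day 4 (SE, n = 2 each). The day 3 value was 1.52 without KO replicate 1 and 0.13 without KO replicate 2. The day 4 libraries of KO held 1130 Airn counts, against 1 in those of day 1, a ratio per depth of 1824 with an exact interval of 327 to 72090. In WT, day 4 was above day 1 by 7.50 ± 0.73 on the log2 scale (SE), where the day 1 libraries held 5 counts in all.

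Airn had fewer counts than Igf2r in every library. These are counts of genes of different length, with 3.6 kb of exons in Airn and 9.31 kb in Igf2r. Per kilobase of exon on day 4, Airn was at 10.4 and Igf2r at 34.2 CPM per kb in KO. In WT, they were at 5.52 and 55.2 CPM per kb. As counts, Airn was 0.0481% and 0% on day 1, 0.387% and 0.726% on day 2, 2.88% and 7.11% on day 3 and 8.85% and 15.1% on day 4 of the Igf2r count in KO libraries. In WT libraries, it was 0% and 0.123% on day 1, 0.339% and 0.520% on day 2, 2.46% and 1.64% on day 3 and 3.13% and 5.04% on day 4. On days 3 and 4 both KO libraries were above both WT libraries, whereas on days 1 and 2 the groups overlapped. Igf2r itself was higher on day 4 than on day 1 while Airn appeared.

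Cdkn1c was lower on day 4 than on day 1 in KO, whereas in WT its day 4 libraries were above its day 1 libraries. On day 1, it had 71.9 and 89.7 CPM in KO libraries, against 25.7 and 31.9 CPM in WT libraries, and on day 2, 50.9 and 43.3 CPM in KO libraries, against 41.2 and 42.5 CPM in WT libraries. The KO libraries were above the WT libraries on both days, by a narrow gap on day 2. On day 3, it had 42.7 and 24.3 CPM in KO libraries, against 42.6 and 23.8 CPM in WT libraries, and on day 4, 32.4 and 33.5 CPM in KO libraries, against 47.1 and 40.3 CPM in WT libraries. The groups overlapped on day 3, and on day 4 the KO libraries were below the WT libraries. KO over WT, the log2 fold change was 1.49 ± 0.27, 0.17 ± 0.26, 0.03 ± 0.27 and -0.41 ± 0.27 on days 1, 2, 3 and 4 (SE, n = 2 each). From day 1 to day 4, Cdkn1c changed by -1.29 ± 0.27 in KO and by 0.60 ± 0.27 in WT on the log2 scale, and the difference of these changes, KO minus WT, was -1.89 ± 0.38 (SE). In the order of levels, KO day 1 stood apart at 80.8 ± 12.6 CPM and WT day 1 was last at 28.8 ± 4.39 CPM (SD, n = 2 each), while neighbours among the 6 groups between them overlapped.

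**Figure D3:**
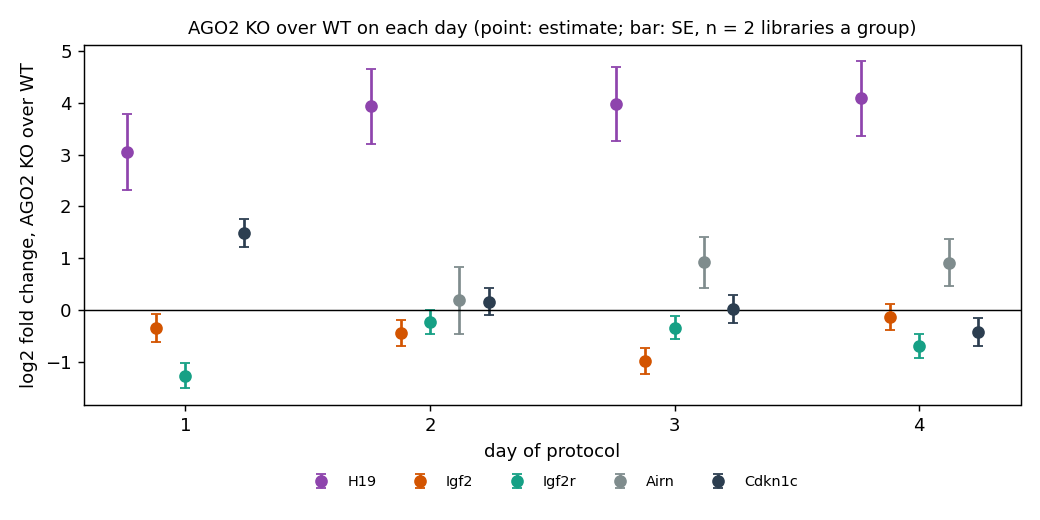
Log2 fold change of AGO2 KO over WT for each gene and day, with the SE of the model as bars (n = 2 libraries a group). No value is drawn for Airn on day 1, when the libraries held 0 to 5 counts. H19 lies between 3.05 and 4.08 on all days, Igf2, Igf2r and Airn lie within 1.3 of 0, and Cdkn1c runs from 1.49 on day 1 to -0.41 on day 4.

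Calls were made at an adjusted p below 0.05 over all genes tested. Of the 5 genes, H19 and Cdkn1c were called higher and Igf2r lower in KO on day 1, where 13.6% of 17694 genes tested were called, 6.89% higher and 6.71% lower. H19 alone was called, as higher, on day 2, where 1.63% of genes passed, 0.774% higher and 0.853% lower, and on day 4, where 7.04% were, 1.99% higher and 5.05% lower. On day 3, H19 was called higher and Igf2 lower, against 4.83% of genes, 1.83% higher and 3% lower. Between day 4 and day 1 in KO, 4 members were called higher and 1, Cdkn1c, lower, where 66.3% of genes passed, 33.3% higher and 32.9% lower. In WT, 4 were called higher, where 48.5% of genes passed, 26.9% higher and 21.6% lower. The difference of these changes was called, as lower, for Cdkn1c, against 6.42% of genes, 2.59% higher and 3.83% lower. Some of these calls rested on single libraries or on the fit. The H19 call ended on day 1 without either WT replicate or without KO replicate 2, on day 2 without any 1 of the 4 libraries, on day 3 without KO replicate 2 and on day 4 without WT replicate 2. Those of Igf2r and Cdkn1c on day 1 ended without WT replicate 2 or KO replicate 2. On day 3, the Igf2 call ended under the replicate block and without WT replicate 2 or either KO replicate, and with the 4 compared libraries alone both the H19 and the Igf2 call ended. The call of the Cdkn1c difference ended without WT day 1 replicate 1 or KO day 1 replicate 2. Since these contrasts chose the genes, nothing is read from these counts. The median log2 fold change of all genes was between -0.02 and 0.01 in these comparisons.

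Per kilobase of exon, H19 and Igf2 took the top places during the course. On day 1, the highest mean level in KO was that of Cdkn1c at 39.6 ± 6.16 CPM per kb, followed by H19 at 13.1 ± 3.50, Igf2r at 6.88 ± 2.47 and Igf2 at 1.56 ± 0.0423 CPM per kb, whereas in WT Igf2r at 16.5 ± 2.65 and Cdkn1c at 14.1 ± 2.15 CPM per kb overlapped at the top and Igf2 at 1.98 ± 0.0836 stood above H19 at 1.57 ± 0.170 CPM per kb (SD, n = 2). On day 4, H19 led in KO at 1701 ± 533 CPM per kb, with Igf2 next at 173.5 ± 25.1 CPM per kb (SD, n = 2). In WT on day 4, Igf2 led at 188.9 ± 73.4 CPM per kb and H19 was next at 100.6 ± 46.4 CPM per kb (SD, n = 2). Igf2r, Cdkn1c and Airn followed in this order in both genotypes on day 4, with Airn last at 10.4 ± 3.16 CPM per kb in KO and 5.52 ± 0.0738 CPM per kb in WT (SD, n = 2).

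At the endpoint, H19 differed widely between the KO clones, which lay on either side of WT. H19 had 3381 CPM in clone C4 and 13.4 CPM in clone 5-3, against 120 and 35.8 CPM in WT diff_XEN, so that C4 was above and 5-3 below both WT libraries. Igf2 had 1194 CPM in clone C4 and 2838 CPM in clone 5-3, against 1051 and 559 CPM in WT diff_XEN, with both clones above both WT libraries. The H19 to Igf2 count ratio was 2.83 in C4 and 0.00473 in 5-3, against 0.114 and 0.0640 in WT diff_XEN. The clone with the low H19 was thus the clone with the high Igf2. In the 8 KO course libraries this ratio was 2.98 to 6.27, but their clone was not given. Genotype and clone therefore cannot be told apart in the H19 and Igf2 values of the course. Summed over 11 mesenchyme and mesoderm markers, 1 of them at 0 in the KO libraries, the level was 6334 CPM in C4 and 8157 CPM in 5-3, against 1386 and 601 CPM in WT diff_XEN, and that of the 15 endoderm markers was 9023 CPM in C4 and 10484 CPM in 5-3, against 57532 and 88615 CPM in WT diff_XEN. The sum of 7 neural markers, 1 of them at 0 in the KO libraries, was 487 CPM in C4 and 404 CPM in 5-3, against 85.7 and 57.0 CPM in WT diff_XEN. Both clones were thus on the same side of WT in these sums. The part of other cell types in the H19, Igf2 and Cdkn1c values was not tested. The log2 fold change of KO over WT was 4.44 ± 2.13 for H19 and 1.36 ± 0.51 for Igf2 (SE, n = 2 each), and without C4 that of H19 was -2.46 and that of Igf2 1.89. Without clone 5-3, the value of Igf2 was 0.58.

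**Figure D4:**
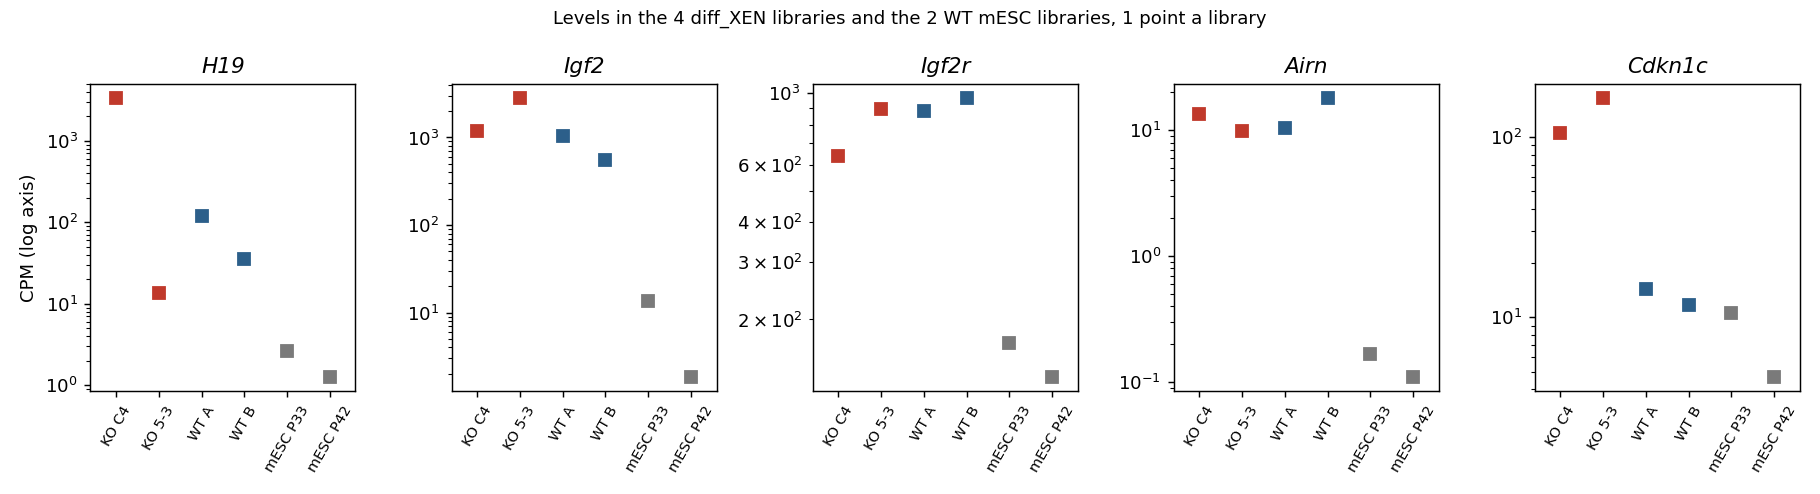
Levels of the 5 genes in CPM on a log axis in the 4 diff_XEN libraries, KO clones in red and WT in blue, and in the 2 WT mESC libraries in grey, with 1 point a library. H19 is 3381 CPM in clone C4 and 13.4 CPM in clone 5-3, and Cdkn1c is above 100 CPM in both clones and below 15 CPM in both WT diff_XEN libraries.

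Cdkn1c was high in both KO clones. It had 106 CPM in C4 and 165 CPM in 5-3, against 14.5 and 11.7 CPM in WT diff_XEN, and its log2 fold change was 3.41 ± 0.30 (SE, n = 2 each), or 3.73 without C4 and 3.03 without 5-3. On days 3 and 4 of the course, whose libraries were scaled apart, Cdkn1c was not higher in KO. Igf2r had 637 CPM in C4 and 896 CPM in 5-3, against 879 and 967 CPM in WT diff_XEN, and Airn had 13.4 CPM in C4 and 9.87 CPM in 5-3, against 10.3 and 18.1 CPM in WT diff_XEN. Both pairs of groups overlapped, with log2 fold changes of -0.24 ± 0.24 for Igf2r and -0.27 ± 0.34 for Airn (SE, n = 2 each). Airn counts were 2.10% of the Igf2r count in C4 and 1.10% in 5-3, against 1.18% and 1.87% in WT diff_XEN. Of the 5 genes, 1, Cdkn1c, was called higher in KO diff_XEN, where 47.0% of 16671 genes were called, 22.1% higher and 24.9% lower. Igf2 was not called there by edgeR but was called higher by the DESeq2 Wald test (adjusted p = 0.0784 and 0.00893).

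WT diff_XEN cells had more of every member than WT mESCs. The counts of these 2 groups came from separate files, so a difference of cell state and one of source cannot be told apart. H19 had 120 and 35.8 CPM in WT diff_XEN, against 2.64 CPM at passage 33 and 1.26 CPM at passage 42 in mESCs. Igf2 had 1051 and 559 CPM in WT diff_XEN, against 13.7 CPM at passage 33 and 1.84 CPM at passage 42, so the mESC libraries themselves differed. Igf2r had 879 and 967 CPM in WT diff_XEN, against 169 and 133 CPM in mESCs, and Airn had 10.3 and 18.1 CPM, against 0.168 and 0.110 CPM in mESCs. The log2 fold change, WT diff_XEN over mESC, was 5.31 ± 1.98 for H19, 6.69 ± 1.03 for Igf2, 2.61 ± 0.27 for Igf2r and 6.63 ± 0.53 for Airn (SE, n = 2 each). Without the mESC library of passage 33, that of Igf2 was 8.79. Cdkn1c had 14.5 and 11.7 CPM in WT diff_XEN, against 10.5 CPM at passage 33 and 4.66 CPM at passage 42, and its log2 fold change of 0.78 ± 0.40 (SE, n = 2 each) was 1.51 without passage 33 and 0.31 without passage 42. Of the 5 genes, 3 (Igf2, Igf2r and Airn) were called higher, where 52.5% of 17936 genes were called, 27.2% higher and 25.3% lower. H19 was not called (edgeR adjusted p = 0.055). It was called higher by the DESeq2 Wald test (adjusted p = 0.0193) and with the 4 compared libraries alone (edgeR adjusted p = 0.001). Per kilobase, Igf2r led in mESCs at 16.2 ± 2.73 CPM per kb, and Igf2 at 140.7 ± 60.7 CPM per kb and Igf2r at 99.2 ± 6.76 CPM per kb overlapped at the top in WT diff_XEN (SD, n = 2 each).

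The neighbours of these genes on the chromosome were described beside them, without a test of the lists. Of the 9 listed genes around H19 and Igf2, 6 passed the filter on low counts and were tested in the course. On days 1, 2, 3 and 4, 0 of these 6 passed edgeR's adjusted p between KO and WT, 1 of 6 had an unadjusted p below 0.05 on each day, and DESeq2 called 0, 0, 0 and 1. Of all genes, edgeR called 13.6%, 1.63%, 4.83% and 7.04% on these days. The median log2 fold change of the 6 neighbours on day 4 was 0.36, while that of H19 was 4.08. In KO diff_XEN, where 22.1% of all genes were called higher, 3 of 4 neighbours tested were called higher, among them Lsp1, a leukocyte actin-binding protein gene, at 2.85 ± 0.43 and the lysosomal protease gene Ctsd at 1.00 ± 0.21 on the log2 scale (SE, edgeR adjusted p = 0.00562 and 0.0144).

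Around Cdkn1c, 10 of 11 listed genes were tested in the course, and the tetraspanin gene Tspan32 alone was called on days 1 and 2, as higher in KO, at 1.28 ± 0.37 on day 1 and 1.73 ± 0.39 on day 2 (SE, edgeR adjusted p = 0.0394 and 0.0412). Of all genes, 6.89% were called higher on day 1 and 0.774% on day 2. In diff_XEN, 5 of 9 tested were called higher and 0 lower in KO, against 22.1% and 24.9% of all genes, with Osbpl5, a lipid transfer protein gene, at 2.73 ± 0.25 and Cd81, a tetraspanin gene, at 1.45 ± 0.22 (SE, edgeR adjusted p = 0.00246 and 0.00569), and the median of the list was 1.45 against -0.02 over all genes. Around Igf2r and Airn, 9 of 11 were tested in the course. Sod2, the mitochondrial superoxide dismutase, at 0.56 ± 0.16 and the mitochondrial ribosome gene Mrpl18 at 0.49 ± 0.14 were called higher in KO on day 1 (SE, edgeR adjusted p = 0.0363 and 0.0384). These were 2 of the 9, against 6.89% of all genes called higher. On day 4, 2 of the 9 were called lower, against 5.05% of all genes. They were the cholesterol pathway gene Acat2 at -0.74 ± 0.18 and the plasminogen gene Plg at -3.98 ± 1.03 (SE, edgeR adjusted p = 0.0235 and 0.0314). DESeq2 called 1 of the 9 on day 4. On days 2 and 3, edgeR called 0 of the 9, against 1.63% and 4.83% of all genes. In diff_XEN, 1 of 8 tested was called higher and 2 lower in KO, against 22.1% and 24.9% of all genes. The median of these 8 was -0.3, against -0.02 over all genes.

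The other genes of the IGF axis, which hold further ligands, receptors, binding proteins and signal adaptors, mostly rose with time as Igf2 and Igf2r did. Between day 4 and day 1, 15 of 17 tested were called higher and 1 lower in KO, and 14 higher and 0 lower in WT, with medians of 2.31 in KO and 2.29 in WT, against -0.02 and 0.01 over all genes. Of all genes, 33.3% were called higher and 32.9% lower in KO, and 26.9% higher and 21.6% lower in WT. The adaptor gene Irs1 rose by 6.16 ± 0.35 in KO and by 4.59 ± 0.32 in WT (SE, edgeR adjusted p = 3.75e-08 and 2.25e-07). Between KO and WT few members were called, namely 0 higher and 2 lower on day 1, 1 higher and 0 lower on day 2, 3 higher and 0 lower on day 3, and 0 higher and 1 lower on day 4. Of all genes tested, 13.6%, 1.63%, 4.83% and 7.04% were called on days 1, 2, 3 and 4, so 2 of 17 on day 1 was near the share of all genes. Igf1, the other IGF ligand gene, was higher in KO by 2.16 ± 0.48 on day 2 and lower, at -1.61 ± 0.43, on day 4 (SE, edgeR adjusted p = 0.0378 and 0.036), and Irs2 was at -1.61 ± 0.35 on day 1 and 1.42 ± 0.30 on day 3 (SE, edgeR adjusted p = 0.0181 and 0.0165). In diff_XEN, 9 of 17 were called higher and 2 lower in KO, against 22.1% and 24.9% of all genes, with Igf1 at -4.73 ± 0.35 and Pappa, a protease that cleaves IGF-binding proteins, at 3.61 ± 0.38 (SE, edgeR adjusted p = 0.00224 and 0.00287).

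Of the other CIP/KIP inhibitor genes, the class to which Cdkn1c belongs, Cdkn1a was higher and Cdkn1b lower in KO diff_XEN, at 2.5 ± 0.29 and -1.57 ± 0.20 on the log2 scale (SE, edgeR adjusted p = 0.00334 and 0.00381). On days 1 to 4, 0 of these 2 were called between KO and WT by edgeR or DESeq2, and 0 had an unadjusted p below 0.05. Of all genes, edgeR called 13.6%, 1.63%, 4.83% and 7.04% on these days and 47.0% in diff_XEN. Among 32 other imprinted genes tested, 8 were called higher and 1 lower in KO on day 1, against 6.89% and 6.71% of all genes. The counts were 2 and 1 on day 2, against 0.774% and 0.853%, and 3 and 1 on day 3, against 1.83% and 3% of all genes. They were 10 and 1 on day 4, against 1.99% and 5.05%, and 15 and 1 in diff_XEN, against 22.1% and 24.9% of all genes. Their median log2 fold change on day 4 was 0.59, against 0 over all genes. Plagl1, an imprinted zinc finger factor gene, was higher in KO by 5.18 ± 0.71 on day 2, 4.71 ± 0.69 on day 3 and 3.47 ± 0.63 on day 4 (SE, edgeR adjusted p = 0.00435, 0.00337 and 0.00616). Of 14 genes for imprint control factors, 2 were called higher and 3 lower on day 1, 1 higher and 1 lower on day 3 and 0 higher and 2 lower on day 4, where 13.6%, 4.83% and 7.04% of all genes were called, among them the de novo DNA methyltransferase gene Dnmt3b at -1.17 ± 0.19 on day 3 and -2.58 ± 0.20 on day 4 (SE, edgeR adjusted p = 0.00353 and 2.28e-06). In KO diff_XEN, 3 of 12 were called higher and 6 lower, where 47.0% of all genes were called, with Dnmt3l, its cofactor, at -6.13 ± 0.23 and Dnmt3b at -4.02 ± 0.43 (SE, edgeR adjusted p = 0.00224 and 0.00292).

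The likeness of patterns was described by Pearson's r of log2(CPM + 0.5) over the 16 course libraries, which share 4 days and 2 genotypes, among the 11071 genes that averaged 5 CPM or more. Igf2 and Airn had r = 0.93 and Igf2 and Igf2r r = 0.85, while H19 had r = 0.81 with Airn, 0.72 with Igf2 and 0.45 with Igf2r. Cdkn1c had r between -0.49 and -0.13 with the other members. The genes most like H19 were Reep3 (r = 0.979), Nsmaf (0.976) and Mast2 (0.972), and those most like Igf2 were Igf2os (0.99), Tmem176b (0.988) and Prss23 (0.988). Igf2os is antisense to Igf2 and shares 98 exonic bases with it, so its count is uncertain. The genes most like Igf2r were Tgfbr3 (0.98), Rassf8 (0.975) and Dact2 (0.972), those most like Airn were the ephrin gene Efna5 (0.986), the collagen gene Col1a1 (0.985) and Bmp1 (0.984), and those most like Cdkn1c were Babam1 (0.897), Msto1 (0.871) and Smdt1 (0.856). The highest r was thus lower for Cdkn1c than for the other 4 genes.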

How the data were processed

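The values deposited by the authors were raw read counts per gene, made with STAR 2.5.0c and featureCounts 1.4.5-p1 on mm10, per the submitters' processing notes. Which annotation was used, and whether counting took strand into account, is not given in the sources used here. Of 24 samples, 22 libraries were used. For the 2 AGO2 KO mESC samples no column could be tied to a label by name, so they are not analysed here, and 3 unmapped columns stayed unused. The plan held 10 comparisons, of which 9 were made.

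Counts were fitted with edgeR 4.0.16 in R 4.3.3 (robust quasi-likelihood fit of group means, TMM scaling, low counts removed by filterByExpr). The 16 course libraries formed 1 fit, the 4 diff_XEN libraries another, and all 6 endpoint libraries the last. The WT mESC counts came in separate files with matching identifiers and were joined to the series table, a step chosen after the files were seen. P-values were adjusted by Benjamini-Hochberg over all genes tested and called below 0.05, and SE was derived from the F statistic. The script was tested on simulated data. DESeq2 1.42.0 served as an alternative, beside its size factors, no filter, fits of the compared libraries alone, the replicate block and leaving out each library. Endpoint identifiers were matched to symbols for 42462 of 43629. A chi-square test of the counts found replicates to differ in each group beyond counting error (12.6 to 149 per degree of freedom).

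The 5 genes and all lists were chosen with earlier results of these data known. The 5 genes and Ago2 were always named. Of each list, counts and at most the 2 members with the smallest p in a comparison were given. For likeness, the 3 genes with the highest r were named, leaving out predicted and clone-named genes. Positions were read from GENCODE for GRCm38, which is mm10, and sequences from RefSeq (GRCm38.p6). That table gave windows for Igf2, Igf2r and Airn.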

Additional observations from a re-analysis of the deposited data

Results flagged for a closer look

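The change of Cdkn1c between day 1 and day 4 differed between the genotypes, with a difference, KO minus WT, of -1.89 ± 0.38 on the log2 scale (SE, edgeR interaction term). The change was -1.29 ± 0.27 in KO and 0.60 ± 0.27 in WT. The difference stayed between -2.08 and -1.70 when each of the 8 libraries was left out. It passed the threshold with all libraries but not without WT day 1 replicate 1 or without KO day 1 replicate 2, at -1.77 and -1.70. Cdkn1c was chosen with this pattern known, so the difference is a description and no evidence is drawn from its call.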

How the results depend on the processing

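No fold change of the 5 genes moved by its SE or changed sign as a called value under DESeq2's size factors, the DESeq2 Wald test, no expression filter, the compared libraries alone, all 6 endpoint libraries or the replicate block. When single libraries were left out, 42 of 200 values moved by at least their SE. Between KO and WT on day 1, the range was -1.62 to -0.92 for Igf2r and -4.02 to 2.07 for Airn, whose libraries held 0 to 5 counts. It was -0.65 to -0.16 for Igf2 on day 2. On day 3, it was 3.23 to 5.68 for H19, 0.13 to 1.52 for Airn and -0.42 to 0.52 for Cdkn1c, and on day 4, -0.44 to 0.35 for Igf2 and -0.95 to -0.31 for Igf2r. Between day 4 and day 1, it was 1.99 to 2.67 for Igf2r and 9.7 to 12.43 for Airn in KO, and 6.09 to 6.88 for Igf2, 1.36 to 1.99 for Igf2r and 6.48 to 11.5 for Airn in WT. For the difference of these changes it was -0.13 to 0.65 for Igf2, 0.27 to 0.96 for Igf2r and -1.13 to 4.96 for Airn. In diff_XEN, it was -2.46 to 5.57 for H19, 0.58 to 1.89 for Igf2, -0.52 to 0.03 for Igf2r, -0.65 to 0.22 for Airn and 3.03 to 3.73 for Cdkn1c. For WT diff_XEN over mESC it was 5.88 to 8.79 for Igf2 and 0.31 to 1.51 for Cdkn1c. A group left with 1 library was taken to have the spread of the others.

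The number of genes called over the whole table moved more. Without the filter, it was 3754 on day 1, 1094 on day 2, 2035 on day 3, 2119 on day 4 and 2707 for the difference of changes. DESeq2 called 607 on day 2, 1345 on day 3 and 2191 for the difference, and on day 4 it split the calls into 710 higher and 969 lower, against 352 and 894 in edgeR. The 4 compared libraries alone gave 1440 on day 2 and 35 on day 3. Leaving out single libraries gave 45 to 4225 on day 1, 49 to 105 on day 2, 271 to 2643 on day 3, 443 to 835 on day 4, 222 to 3133 for the difference and 4180 to 6952 in diff_XEN.

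The deviations of same-numbered replicates of KO and WT had r = -0.16, 0.02 and -0.15 on days 1 to 3 and 0.65 on day 4. Nothing in the labels ties the numbers together, so they were not taken to pair the samples. With the replicate block, 1881, 249, 767 and 1112 genes were called on days 1 to 4, and H19 was at 3.10, 4.01, 4.15 and 4.10. The day 3 call of Igf2 was lost under the block, with the fold change at -0.97 as before, and no other call of the 5 genes changed under it. A crossed pairing, chosen after seeing the data, gave 1734 on day 1, 803 on day 3 and 11766 between the days in KO. For the endpoint comparisons alone, no pairing could be tried. No paired analysis was possible because their columns carry no replicate number. The comparison of KO with WT mESCs was not run. Airn on day 1 was at the limit of the depth.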

Other observations

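Mir483, the hairpin in an intron of Igf2, had 0 to 2 counts in the 6 endpoint libraries and 0 to 6 in the 16 course libraries, too few for a comparison. The Igf2 count divided by the Igf2r count, ligand over receptor, was 0.109 and 0.191 on day 1 and 3.28 and 2.94 on day 4 in KO libraries. In WT libraries, it was 0.0811 and 0.0685 on day 1 and 2.19 and 1.97 on day 4. On both of these days the KO libraries were above the WT libraries, although Igf2 alone was lower in KO on day 1 and overlapped on day 4. On day 2 the groups overlapped, with 0.336 and 0.385 in KO libraries, against 0.456 and 0.378 in WT libraries. On day 3 the order was turned, with 1.72 and 2.23 in KO libraries, against 2.53 and 3.76 in WT libraries. This ratio too compares genes of different length, with 5.72 kb of exons in Igf2 and 9.31 kb in Igf2r. In diff_XEN, the Igf2 to Igf2r ratio was 1.87 in clone C4 and 3.17 in clone 5-3, against 1.20 and 0.578 in WT.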
